A study of Homo sapiens with 4 samples.

Results

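FGFR1 and 9 of its neighbours in the 8p11 segment of chromosome 8 were examined in NCI-H520, an established cell line of lung squamous cell carcinoma, after exposure to Hx1R8. The 10 genes, FGFR1, NSD3, LETM2, PLPP5, DDHD2, BAG4, LSM1, ASH2L, ERLIN2 and BRF2, were chosen as FGFR1 and genes beside it in the segment that is amplified in squamous lung cancer by a rule that used no measured value. They were read from the deposited table by their gene symbols. All 10 were found among its 28277 genes, and all 10 had enough reads to be tested. RNA sequencing covered 2 libraries of cells exposed to Hx1R8 at 10 µM for 12 h and 2 libraries of cells given ultrapure water (Vehicle). No exposure time is recorded for the Vehicle libraries. The titles of the treated libraries shorten Hx1R8 to Hx1. Cells of both groups were labelled wild type (WT). By its title the study is about SOX2, a transcription factor of the squamous lineage, and resistance to drugs. The labels do not say what kind of agent Hx1R8 is.

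FGFR1 is a receptor tyrosine kinase of the cell surface. Binding of a fibroblast growth factor (FGF) pairs the receptor, and the adaptor FRS2 then passes the signal to RAS, RAF, MEK and ERK. ERK in turn raises transcripts of its own inhibitors, the Sprouty proteins and the DUSP phosphatases. The 8p11 segment is recurrently amplified in squamous lung cancer, NCI-H520 is widely used as a line with this amplification, and several neighbours of FGFR1 in the segment have been proposed as drivers beside it. DNA copy number was not measured in these libraries.

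Total counts were 17259403 and 20920857 in the Hx1R8 libraries and 17483349 and 17352323 in the Vehicle libraries, so that 3 reads corresponded to 0.143 to 0.174 counts per 1000000 reads (CPM). Nothing in the labels ties the libraries to separate cultures. The p-values therefore cover the spread among these 4 libraries, and that spread may be technical. The 2 Vehicle libraries differed from each other more than any other pair did, with a chi-square per gene of 2.95 against 1.48 to 2.43 for the other pairs. Of 10 squamous markers, SOX2 was abundant at 509 ± 17.4 CPM in Hx1R8 and 528 ± 18.6 CPM in Vehicle (SD, n = 2 each), whereas KRT14 and DSG3 had no reads in any library and TP63 and PKP1 were below 1 CPM in both groups. Of these 10 markers 7 were tested and 0 passed edgeR's test between the groups, with 4 at an unadjusted p under 0.05 beside 3.39% of all tested genes. DSC3 averaged 7.57 ± 0.049 CPM in Hx1R8 and 6.09 ± 0.050 CPM in Vehicle, and PITX1 137 ± 2.85 CPM in Hx1R8 and 126 ± 1.57 CPM in Vehicle (SD, n = 2 each). SFN averaged 22.4 ± 0.45 CPM in Hx1R8 and 26.1 ± 0.74 CPM in Vehicle, and KRT6A 17.4 ± 0.53 CPM in Hx1R8 and 19.8 ± 0.12 CPM in Vehicle (SD, n = 2 each). Of the 7 tested markers 3 had a log2 fold change above 0 and 4 below 0, and the groups did not overlap for 5 of the 7, namely these 4 and TP63, beside 29.8% of all tested genes. The summed level of the 10 squamous markers was 706.6 and 686.7 CPM in Hx1R8 against 719.3 and 696.8 CPM in Vehicle. Of 8 neuroendocrine markers, CHGB had the most reads, at 529 CPM in Hx1R8 and 525 CPM in Vehicle, and UCHL1, at 282 CPM in Hx1R8 and 289 CPM in Vehicle, was the highest per exon length. Of these 8 markers 7 were tested and 0 passed by edgeR, with 0 at an unadjusted p under 0.05, and their summed level was 901 and 903 CPM in Hx1R8 against 899.6 and 902.9 CPM in Vehicle. Of 8 immune markers 6 were below 1 CPM in both groups, with PTPRC at 0 and CD14 the most abundant, and their summed level was 2.26 and 3.004 CPM in Hx1R8 against 3.48 and 3.58 CPM in Vehicle. Of 8 fibroblast and endothelial markers 7 were below 1 CPM in both groups, with COL1A1 the most abundant, and their summed level was 8.07 and 8.73 CPM in Hx1R8 against 9.19 and 8.78 CPM in Vehicle.

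None of the 10 genes passed the test between Hx1R8 and Vehicle, and their transcript levels were closely bounded. FGFR1 averaged 760 ± 3.16 CPM in Hx1R8 and 769 ± 21.3 CPM in Vehicle (SD, n = 2 each), and its fold of 0.988 had a 95% interval from 0.927 to 1.05. For 9 of the 10 genes the interval lay between 0.906-fold and 1.12-fold. The exception was LETM2, the scarcest of the 10, whose interval ran from 0.794 to 1.09. By edgeR's quasi-likelihood test, 0 of 10 genes had an adjusted p under 0.05, where the share over all 14482 tested genes was 0.0207%, made up of 0.0138% higher and 0.00691% lower in Hx1R8. These shares rest on 3 calls over all genes, against 79 without Vehicle replicate 1, 31 without Vehicle replicate 2, 7 without Hx1R8 replicate 1 and 6 without Hx1R8 replicate 2, with 0 of the 10 genes among them each time. At an unadjusted p under 0.05 there were 0 of 10, beside 3.39% of all tested genes. DESeq2 and limma-voom also called 0 of the 10.

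The receptor gene stood far above its neighbours in reads. FGFR1 (chromosome 8, 38411138 to 38468834 on hg38, minus strand, 6303 exon bases) had 757 and 762 CPM in Hx1R8, against 754 and 784 CPM in Vehicle. Both Hx1R8 libraries lay inside the range of the Vehicle libraries. Its log2 fold change was -0.017 (SE 0.045, adjusted p = 0.9999 by edgeR). FGFR1 took 44.7% and 44.9% of the reads of the 10 genes in Hx1R8, against 44.2% and 46.3% in Vehicle. In RNA from bulk cells, the amount of RNA per cell and the share of cells that carry it cannot be told apart.

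The chromatin regulators of the segment also varied little. NSD3, a histone H3 lysine 36 methyltransferase, lies on the minus strand at 38269705 to 38382272 and had 244.5 and 247.6 CPM in Hx1R8, against 244.7 and 239.4 CPM in Vehicle. One Hx1R8 library was above both Vehicle libraries and the other fell between them. ASH2L, a core subunit of the MLL and SET1 complexes that methylate histone H3 lysine 4, lies on the plus strand at 38105493 to 38140080 and had 139.0 and 138.2 CPM in Hx1R8, against 142.5 and 138.4 CPM in Vehicle. Its groups overlapped, with Vehicle replicate 1 the highest and Hx1R8 replicate 2 the lowest. The log2 fold changes were 0.024 (SE 0.047) for NSD3 and -0.019 (SE 0.049) for ASH2L.

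Among the genes of RNA synthesis and decay, BRF2 is the factor that places RNA polymerase III on promoters lying outside the transcribed gene, such as that of U6. BRF2 (37843268 to 37849861, minus strand) had 32.3 and 30.9 CPM in Hx1R8, against 30.03 and 32.7 CPM in Vehicle, so that the Vehicle libraries enclosed the Hx1R8 libraries. LSM1 forms part of the cytoplasmic LSM ring that marks mRNAs for decapping. LSM1 (38163321 to 38176730, minus strand) had 97.3 and 96.0 CPM in Hx1R8, against 101 and 94.0 CPM in Vehicle, and again the Vehicle libraries were the highest and the lowest. The log2 fold changes were 0.0072 (SE 0.074) for BRF2 and -0.011 (SE 0.053) for LSM1.

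BAG4 was the 1 gene of the 10 whose groups did not overlap in CPM, beside 29.8% of all tested genes. Its Hx1R8 libraries were the higher ones, beside 14.7% of all tested genes with that direction and 15.2% with the other. BAG4, a cochaperone of HSP70 also known as the silencer of death domains for its binding to the TNF receptor, lies at 38176855 to 38213301 on the plus strand. It had 88.5 and 88.5 CPM in Hx1R8, against 86.7 and 84.2 CPM in Vehicle. The fold was 1.04, with a 95% interval from 0.961 to 1.12, and BAG4 did not pass the test (unadjusted p = 0.35, adjusted p = 0.9999 by edgeR).

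The lipid enzymes and membrane proteins had groups that overlapped throughout. DDHD2, a lipase that hydrolyses triglycerides in neurons (38231491 to 38262836, plus strand), had 136 and 140.4 CPM in Hx1R8, against 139.7 and 130.2 CPM in Vehicle. PLPP5, a phosphatase of phosphatidic acid and related lipids (38263132 to 38269232, minus strand), had 66.0 and 63.4 CPM in Hx1R8, against 67.8 and 63.5 CPM in Vehicle. The log2 fold changes of the enzymes were 0.036 (SE 0.050) for DDHD2 and -0.023 (SE 0.059) for PLPP5. ERLIN2, which with ERLIN1 forms a complex of the endoplasmic reticulum that hands activated IP3 receptors over to degradation (37736634 to 37758421, plus strand), had 124 and 121 CPM in Hx1R8, against 127 and 118 CPM in Vehicle. Its group means were both 122 CPM, and its log2 fold change was -9.9e-05 (SE 0.051). LETM2, a mitochondrial inner membrane protein related to the ion exchanger LETM1 (38386441 to 38409524, plus strand), had 180 and 210 reads in Hx1R8, against 203 and 179 reads in Vehicle. This was 10.4 and 10.0 CPM in Hx1R8, against 11.6 and 10.3 CPM in Vehicle, and 1 of the Hx1R8 libraries lay between the Vehicle libraries. Its log2 fold change of -0.10 (SE 0.11) was the value farthest from 0 among the 10.

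**Figure D1:**
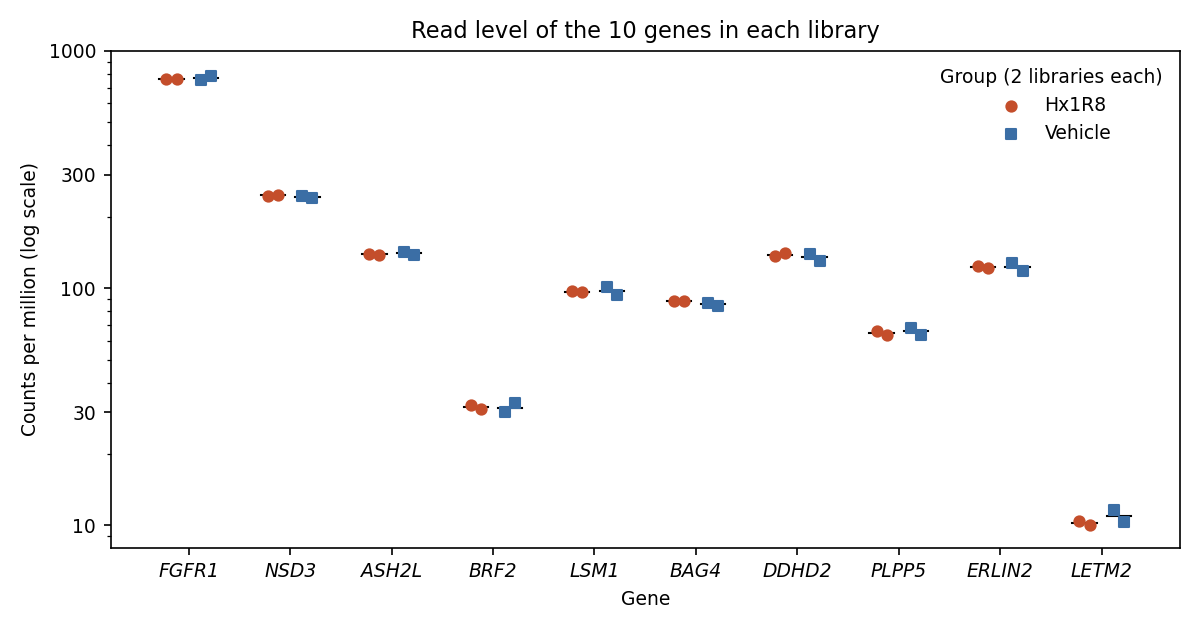
CPM of each gene on a log axis, with 1 point per library, Hx1R8 (circles) left of Vehicle (squares), and a bar at each group's mean. FGFR1 lies between 754 and 784 CPM in every library, LETM2 between 10.0 and 11.6 CPM, and the groups are separated for BAG4 alone.

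**Figure D2:**
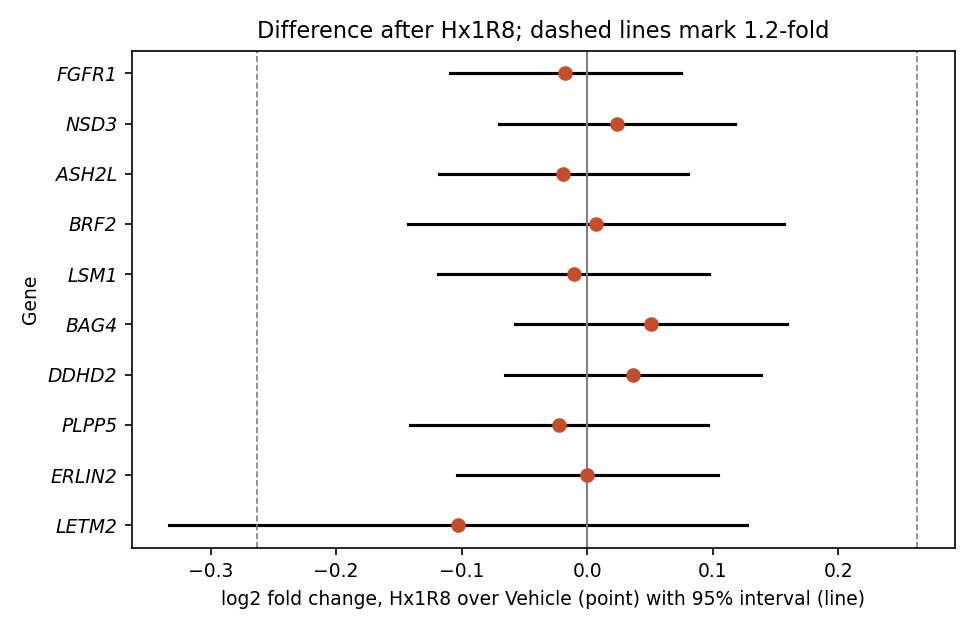
The log2 fold change of Hx1R8 over Vehicle for each gene (points) with its 95% interval from edgeR (lines). Every interval spans 0, and the interval of LETM2 alone crosses the dashed line at 1.2-fold.

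As a set, the 10 genes were centred on no change. Of the 10, 4 had a log2 fold change above 0 and 6 below 0, beside 51.1% of all tested genes below 0, and their median was -0.0055 against -0.0018 for all tested genes. All 10 genes had 95% intervals inside 1.5-fold in either direction, beside 81.4% of all tested genes, and 9 of the 10 had them inside 1.2-fold, beside 57.6%. The 10 genes were also deeper in reads, at a median of 110.0 CPM against 25 CPM over all tested genes. The summed level of the 10 was 1695 and 1698 CPM in Hx1R8, against 1704 and 1694 CPM in Vehicle. The ratio of the highest to the lowest library ranged from 1.03 for ASH2L to 1.16 for LETM2. For 5 of the 10 genes, namely NSD3, ASH2L, BRF2, BAG4 and LETM2, the coefficient of variation over the 4 libraries was below the one that counting alone gives. FGFR1 was not among them, at 1.77% over the libraries against 0.847% from counting. Vehicle replicate 2 was the lowest library for 5 of the 10 genes and Vehicle replicate 1 the highest for 5, while Hx1R8 replicate 1 was neither the highest nor the lowest for any. Shares over all tested genes were computed neither for the counting comparison nor for the highest and lowest libraries.

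Levels of different genes were compared per exon length, as CPM per kilobase (RPKM) over the exon length listed in the table. FGFR1 was highest at 120 ± 0.50 RPKM in Hx1R8 and 122 ± 3.38 RPKM in Vehicle (SD, n = 2 each), rank 412 of the 14482 tested genes and rank 14 of the 506 tested genes of chromosome 8. LSM1 followed at 83.2 ± 0.78 RPKM in Hx1R8 and 83.8 ± 4.07 RPKM in Vehicle, and ASH2L at 42.0 ± 0.17 RPKM in Hx1R8 and 42.5 ± 0.89 RPKM in Vehicle (SD, n = 2 each). Over all 4 libraries DDHD2 averaged 23.0 RPKM, PLPP5 22.0, BAG4 20.7, NSD3 19.7, ERLIN2 17.2 and BRF2 12.3 RPKM. LETM2 was lowest at 2.42 ± 0.072 RPKM in Hx1R8 and 2.59 ± 0.21 RPKM in Vehicle (SD, n = 2 each), 48.4-fold below FGFR1. By mean RPKM 9 of the 10 genes were above the median of all tested genes, which was 6.52 RPKM, and 7 of the 10 were in the top 25% of tested genes.

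All 10 genes held the same rank within the set in each of the 4 libraries. DDHD2 and PLPP5 were the only neighbours in this order whose ranges over the libraries overlapped, at 21.9 to 23.6 RPKM for DDHD2 and 21.4 to 22.9 RPKM for PLPP5, although DDHD2 was the higher in 4 of 4 libraries. DDHD2, PLPP5, BAG4 and NSD3 lay close together, with ratios between neighbours of 1.04 to 1.06. The place of BRF2 in the order is less certain. Of its 2560 exon bases 1629 overlap exons of ADGRA2, an adhesion receptor gene on the other strand, and only 36.4% belong to BRF2 alone. Divided by these bases alone, BRF2 would stand at 33.8 RPKM, between ASH2L and DDHD2. That value holds only if reads on the overlap were left out of the count, and no label or file header says how such reads were counted. ADGRA2 itself was at 0.712 RPKM. ERLIN2 shares 213 of its 7118 exon bases with LOC102723701, and the exons of the other 8 genes overlap no other listed gene.

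Genes lying next to each other ranged from near equal to far apart in level. All ratios given here rest on the listed exon lengths, and whether every listed exon was used was not tested. LSM1 and BAG4 start head to head, 124 bases apart, and LSM1 was 4.03-fold above BAG4 in RPKM. Their listed lengths are 1161 and 4197 exon bases. In CPM they were closer, with LSM1 at 96.6 in Hx1R8 and 97.3 in Vehicle, and BAG4 at 88.5 in Hx1R8 and 85.4 in Vehicle. DDHD2 and PLPP5 meet tail to tail with 295 bases between them, at a ratio of 1.04. PLPP5 starts 472 bases beyond the end of NSD3 on the same strand, and the pair differed by 1.12-fold. NSD3 and LETM2 are head to head with 4168 bases between them, and NSD3 was 7.87-fold above LETM2. LETM2 and FGFR1 end tail to tail, 1613 bases apart, and this adjacent pair holds the highest and the lowest level of the 10.

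Between 37736634 and 38468834, the span of the 10 genes, extended by 1 Mb on each side, the table listed 23 further genes, of which 12 were tested. None of the 12 passed the test in either direction by edgeR, beside 0.0207% of all tested genes. The count at an unadjusted p under 0.05 was 0 of 12, beside 3.39% of all tested genes. The median log2 fold change of the 12 was -0.0029, with a range from -0.31 to 0.30. Both ends were genes of few reads. LINC01605, at -0.31, had 9 and 14 reads in Hx1R8, against 10 and 16 in Vehicle. ADAM32, at 0.30, had 11 and 12 reads in Hx1R8, against 12 and 5 in Vehicle. Of the 12 genes 8 had 95% intervals inside 1.2-fold, beside 57.6% of all tested genes. Their median depth was 108 CPM, against 25 CPM over all tested genes. EIF4EBP1, a translation repressor bound to eIF4E, was the 1 gene of the interval above FGFR1, at 228 RPKM, followed by PLPBP (a pyridoxal phosphate binding protein) at 51.7 RPKM and RAB11FIP1 (an effector of the recycling GTPase RAB11) at 36.3 RPKM over all libraries. The smallest unadjusted p values belonged to ADGRA2 (log2 fold change -0.22, SE 0.17), C8orf86 (0.095, SE 0.11) and TACC1 (0.037, SE 0.047). C8orf86, the nearest listed gene beyond the start of FGFR1, was at 5.26 RPKM and TACC1, a centrosomal coiled-coil protein, at 14.9 RPKM. The median level of the 12 genes was 18.6 RPKM, against 5.92 RPKM for the 484 tested genes of chromosome 8 outside the interval and 21.4 RPKM for the 10 genes. The median of the further genes was 44.0 RPKM within the span itself, over 4 tested genes, and 11.2 RPKM with an extension of 3 Mb, over 16 tested genes. Of the 11 listed genes of the extended interval that were not tested, 4 had no reads in any library.

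**Figure D3:**
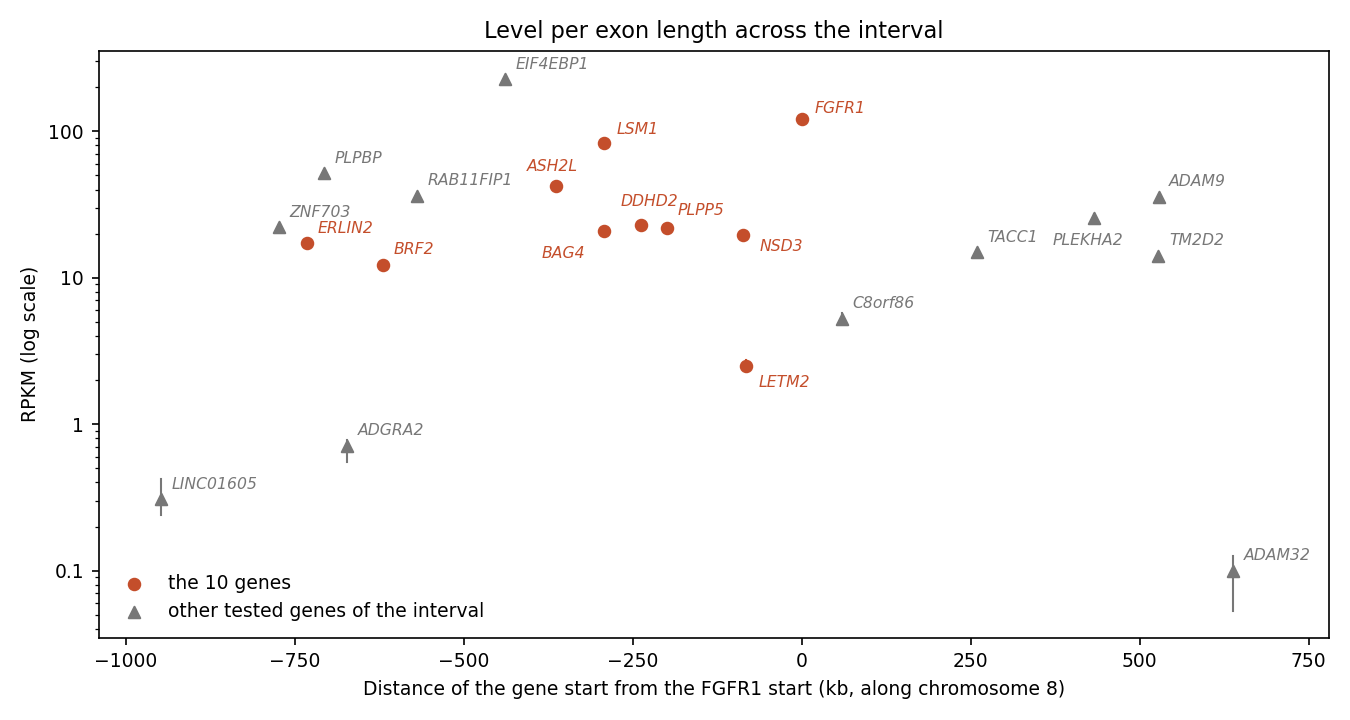
Mean RPKM over the 4 libraries (log axis) against the distance of each gene's start from the start of FGFR1 in kb along chromosome 8, with lines from the lowest to the highest library. Circles are the 10 genes and triangles the 12 other tested genes; LETM2 lies at 2.50 RPKM beside FGFR1 at 121 RPKM, and EIF4EBP1 is the highest at 228 RPKM.

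The other parts of the FGF pathway likewise had no gene past the test. Over all tested genes edgeR called 0.0207%, so a count of 0 in lists of this size says little. Among 22 FGF ligands, 13 were tested and 0 passed by edgeR, with 0 at an unadjusted p under 0.05, beside 3.39% of all tested genes. The median log2 fold change of the tested ligands was -0.017. Of these 13 ligands 4 had 95% intervals inside 1.2-fold, beside 57.6% of all tested genes. The 13 were shallower in reads, at a median of 5.34 CPM against 25 CPM over all tested genes. The ligand genes FGF3 and FGF19 stood at 150.1 and 139 RPKM over all libraries, each above FGFR1. FGF19, a ligand that acts with the coreceptor KLB, had 137 and 136 RPKM in Hx1R8, against 142 and 141 RPKM in Vehicle, with both Hx1R8 libraries lower and a log2 fold change of -0.046 (SE 0.046). FGF11 was at -0.24 (SE 0.15) and FGF18 at 0.22 (SE 0.22).

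Of the other receptors and coreceptors, 5 of 6 were tested and 0 passed by edgeR, with 1 at an unadjusted p under 0.05 beside 3.39% of all tested genes, and 3 of the 5 had 95% intervals inside 1.2-fold. FGFRL1, a family member without the kinase domain, was at 268 RPKM over all libraries, 2.21-fold above FGFR1. FGFR3 was at 17.3 ± 0.24 RPKM in Hx1R8 and 16.98 ± 1.17 RPKM in Vehicle (SD, n = 2 each), with a log2 fold change of 0.027 (SE 0.057). FGFR4 was at 7.65 RPKM over all libraries and the coreceptor KL at 0.874 RPKM, with a log2 fold change of 0.080 (SE 0.17). The coreceptor KLB was not tested, with 6 and 8 reads in Hx1R8, against 9 and 6 reads in Vehicle. FGFR2 had 21 and 16 reads in Hx1R8, against 9 and 9 reads in Vehicle. Its groups did not overlap, as for 29.8% of all tested genes, at a log2 fold change of 0.90 (SE 0.41) and an adjusted p of 0.9999 by edgeR (unadjusted p = 0.036). The value ran from 0.56 without Hx1R8 replicate 1 to 1.23 without Hx1R8 replicate 2.

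In the relay below the receptor, all 19 genes were tested and 0 passed by edgeR. The count at an unadjusted p under 0.05 was 0 of 19, beside 3.39% of all tested genes. The 19 genes had a median of 92.1 CPM, against 25 CPM over all tested genes. The median log2 fold change of these adaptor, RAS, RAF, MEK and ERK genes was 0.017, and 17 of the 19 had 95% intervals inside 1.2-fold, beside 57.6% of all tested genes. The GTPase genes NRAS and HRAS were at 0.065 (SE 0.049) and 0.096 (SE 0.076), and the adaptor GRB2 at -0.060 (SE 0.048). MAP2K2 (MEK2) and the phosphatase PTPN11 were the most abundant, at 109 and 72.7 RPKM. FRS2, the docking adaptor of FGFR1, was at 3.71 RPKM.

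Transcripts known to rise with ERK signalling are a readout of the pathway that the choice of the 10 genes did not use. Their list was drawn up with earlier results of these data known. Of 21 such genes 20 were tested, 0 passed, and 1 had an unadjusted p under 0.05 by edgeR, near the 3.39% of all tested genes, with 11 above 0, 9 below 0 and a median log2 fold change of 0.0052. The 95% interval was inside 1.2-fold for 12 of the 20, also near the 57.6% of all tested genes. DUSP6, the ERK phosphatase, had 99.5 and 96.8 CPM in Hx1R8, against 102 and 99.1 CPM in Vehicle. SPRY4 had 88.3 and 94.0 CPM in Hx1R8, against 88.2 and 93.5 CPM in Vehicle. The groups overlapped for both genes. PHLDA1 and EGR1 were the most abundant per length, at 119 and 111 RPKM. DUSP5, a nuclear ERK phosphatase, had 43 and 40 reads in Hx1R8, against 34 and 15 reads in Vehicle, so that Vehicle replicate 2 stood apart below the other 3 libraries. Its log2 fold change was 0.63 (SE 0.29, unadjusted p = 0.035, adjusted p = 0.9999 by edgeR). The value was 1.32 without Vehicle replicate 1 (adjusted p = 0.083 by edgeR) and 0.16 without Vehicle replicate 2, and the adjusted p was at least 0.083 under every alternative run. FOSL1 was at -0.61 (SE 0.40), averaging below 1 CPM in both groups, and DUSP4 at -0.13 (SE 0.090). DUSP6 and SPRY4 were chosen for naming after their values were seen, as were FGFR4, KLB and FRS2.

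The partners of the chromatin members were tested in full. Of 8 relatives and partners of NSD3 0 passed and all 8 had 95% intervals inside 1.2-fold, with the methyltransferase ASH1L at 0.099 (SE 0.054) and the H3K36 reader PSIP1 at 0.050 (SE 0.051). The paralog NSD2 was at 41.9 RPKM, against 19.7 RPKM for NSD3. Of 17 subunits of the complexes that hold ASH2L 0 passed, with a median of -0.027. Of these 17, 16 had 95% intervals inside 1.2-fold, among them the core subunits WDR5 at -0.088 (SE 0.051) and DPY30 at 0.11 (SE 0.073). KDM6A, a demethylase of histone H3 lysine 27 joined to the same complexes, was at -0.32 (SE 0.18) and 0.669 RPKM. No gene of either list had an unadjusted p under 0.05 by edgeR, a count of 0 of 8 and 0 of 17. The share over all tested genes was 3.39%, and 57.6% of them had intervals inside 1.2-fold. Both lists were deeper in reads, at medians of 171 CPM for the NSD3 list and 111 CPM for the ASH2L list. The median over all tested genes was 25 CPM.

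The partners of the RNA and membrane members were at similar values. Of 15 genes of the LSM ring and the decapping machinery 0 passed and 0 had an unadjusted p under 0.05 by edgeR, with a median of -0.022, 10 below 0, 5 above, and 13 of the 15 with 95% intervals inside 1.2-fold. LSM7, which shares the ring with LSM1, was at -0.088 (SE 0.053) and 182 RPKM, LSM5 at -0.086 (SE 0.061), and the decapping cofactor DCP1B at 0.22 (SE 0.13). Of 27 RNA polymerase III genes 0 passed and 0 had an unadjusted p under 0.05 by edgeR, with a median of 0.017 and 24 of the 27 with 95% intervals inside 1.2-fold. The polymerase subunits POLR3B and POLR3E were at 0.12 (SE 0.075) and -0.084 (SE 0.056), and SNAPC1, a subunit of the complex that works with BRF2 at U6, at -0.22 (SE 0.15). Of 19 relatives and partners of BAG4, DDHD2, PLPP5, ERLIN2 and LETM2, 17 were tested, 0 passed and 0 had an unadjusted p under 0.05 by edgeR, with a median of 0.012 and 13 of the 17 with 95% intervals inside 1.2-fold. TNFRSF1A, the TNF receptor that BAG4 binds, was at -0.17 (SE 0.091), and the lipid phosphatases PLPP6 and PLPP2 at 0.16 (SE 0.091) and -0.11 (SE 0.067). Over all tested genes, 3.39% had an unadjusted p under 0.05 by edgeR and 57.6% had intervals inside 1.2-fold. Median depth was 77.4 CPM for the LSM and decapping genes and 56.8 CPM for the RNA polymerase III genes. It was 54.9 CPM for the 17 tested relatives and partners, against 25 CPM over all tested genes. DESeq2 and limma-voom also called 0 of the 141 tested genes of all pathway and partner lists. With 0.0207% of all tested genes called by edgeR, a count of 0 of 141 says little about these lists.

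**Figure D4:**
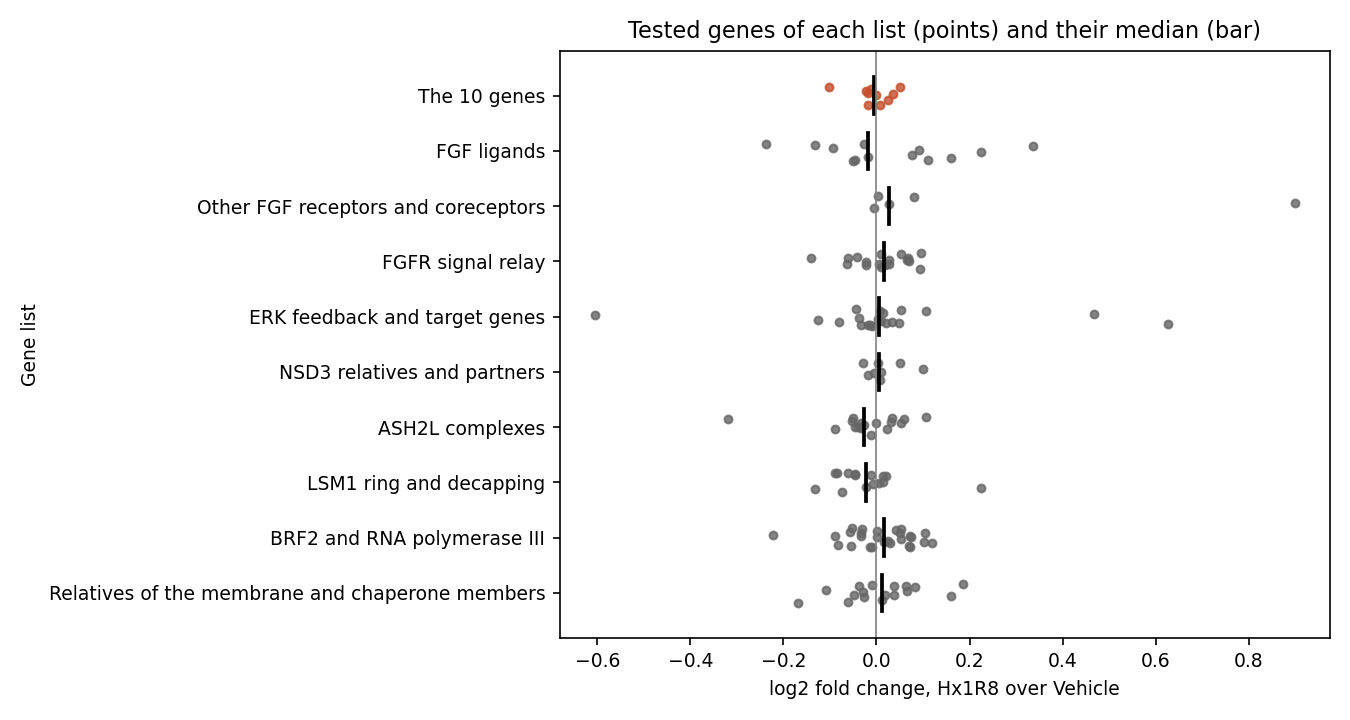
The log2 fold change of Hx1R8 over Vehicle for every tested gene of each list (points, with a vertical scatter that carries no value) and the list's median (bars). The medians lie between -0.027 and 0.027, and the points farthest out are FGFR2 at 0.90, DUSP5 at 0.63 and FOSL1 at -0.61.

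The tested genes most like FGFR1 in level over the 4 libraries, by the smallest sum of squared differences in log2 RPKM and with the 10 genes left out, were GPR50, PRPF19 and JTB. They averaged 122, 120 and 121 RPKM over all libraries, against 121 RPKM for FGFR1.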

How the data were processed

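The authors deposited raw counts per gene, 1 column per library, beside each gene's exon positions, strand and exon length. The submitters' processing notes name STAR 2.7.9 and hg38. They name no counting tool, and whether counting used strand is not stated. After 2 lines holding 1 gene's broken row were left out, 28277 genes remained. The quasi-likelihood test of edgeR 4.0.16 (R 4.3.3) was run on the counts after filterByExpr, with TMM scaling and group as the only term. The test was two-sided, with Benjamini-Hochberg adjustment over all 14482 tested genes and a threshold of 0.05. Standard errors and 95% intervals came from this fit. They rest on 2 residual degrees of freedom and 36.9 prior degrees of freedom shared across genes. CPM and RPKM were computed from the deposited counts with TMM-scaled totals (factors 0.998 to 1.00) and the listed exon length. Counting floors cover counting error only, whereas the intervals also cover the spread among the libraries. The code was tested on simulated data.

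The rule for the members used no measured value. The members and gene lists were still chosen with earlier results of these data known. Of each list, the text names part of the 3 tested genes with the smallest unadjusted p and the 2 with the highest RPKM. Alternatives covered other scalings and filters, DESeq2 1.42.0, limma-voom 3.58.1, robust dispersions, a block for the replicate number, other gene lengths, TPM, other intervals and leaving out each library. The labels give no batch.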

Additional observations from a re-analysis of the deposited data

How the results depend on the processing

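None of the 10 genes, and none of the 141 tested pathway and partner genes, was called under any of 13 alternatives, and the 10 genes kept log2 fold changes between -0.18 and 0.088. Over all genes 3 were called, against 2 with DESeq2 or robust dispersions and 6 to 79 with 1 library left out, where the lone sample of a group is assumed to vary like the other group; the highest count came without Vehicle replicate 1 and the next, 31, without Vehicle replicate 2. The median log2 fold change of the 10 genes was -0.0055 and ran from -0.025 to 0.032 with 1 library left out. With all libraries kept, the sign turned for ERLIN2 alone, from -9.9e-05 to 0.0012 with median-ratio factors, 0.00095 with library totals alone, 0.0042 without a low-count filter, 0.0015 with DESeq2, 0.00089 with limma-voom and 0.0018 with the replicate block. With 1 library left out, signs turned for FGFR1 (-0.045 to 0.013), ASH2L (-0.038 to 0.0025), BRF2 (-0.053 to 0.071), LSM1 (-0.058 to 0.039), DDHD2 (-0.011 to 0.088), PLPP5 (-0.068 to 0.025) and ERLIN2 (-0.053 to 0.056), and not for NSD3, BAG4 or LETM2. Of the other genes whose log2 fold change is given, the ones recomputed here, they turned for ADGRA2 (-0.47 to 0.030), FGFR3 (-0.040 to 0.099), KL (-0.065 to 0.25) and PSIP1 (-0.0098 to 0.11); the cause was not tested for any of these. Both groups use the replicate numbers 1 and 2. Deviations from the group mean in libraries of the same number had a Pearson r of 0.032 over the tested genes. With 2 libraries per group, this r cannot show whether libraries of the same number were prepared together, and that was not tested. With the block 3 genes were called, none of the 10. As TPM the levels were 374 for FGFR1, 258 for LSM1, 131 for ASH2L, 71.0 for DDHD2 and 68.0 for PLPP5. BAG4 was at 64.0, NSD3 at 60.8, ERLIN2 at 53.1, BRF2 at 37.9 and LETM2 at 7.73 TPM. Within a library TPM is RPKM times the same factor for every gene, so the order by TPM could not differ from that by RPKM. With exon bases of its own alone BRF2 was at 33.8 RPKM. The further genes of the interval had a median of 44.0 RPKM without extension and 11.2 RPKM with 3 Mb. Depth limits LETM2 and genes of few reads such as FGFR2, FOSL1 and DUSP5.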
